A study of Mus musculus with 4 samples.

Results

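The places in the genome that Gata2 occupied in mouse blood progenitors were described from 1 sequencing library made with an anti-Gata2 antibody and 1 made with control IgG. These are 2 of the 4 libraries of a series on the role of the cofactor Ldb1 in haematopoietic stem cells. Both come from freshly isolated bone marrow cells from which lineage-positive cells had been taken out with magnetic beads, and the labels give no genotype, strain, age or treatment beyond that. The comparison covers chromosomes 1 to 19 and counts 1 tag (a 25 bp aligned read) per chromosome, 5′ end and strand. The fraction is a mixture of stem cells and several kinds of progenitor, so occupancy in fewer cells and weaker occupancy in each cell cannot be told apart. No gene was assigned to a position, because coordinates are in build mm8, and the cell type was not checked against marker genes.

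Gata2 is a transcription factor with a pair of zinc fingers that bind DNA at short sites containing the letters GATA. It is needed to form and maintain haematopoietic stem cells and is also used in early progenitors and mast cells, while its relative Gata1 takes over as red blood cells mature. In chromatin immunoprecipitation, fragments held by the antibody are sequenced from their ends. Forward tags therefore pile up on the left of a bound site and reverse tags on the right.

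The Gata2 library held 5785973 kept tags and the IgG library 3401045, after 14.1% and 30.1% of the tags had been left out as repeats of a position. The genome mean was 1.08 Gata2 tags and 0.636 IgG tags per 400 bp. Each antibody had 1 library, so intervals below are 95% intervals for counting error only, and they say nothing about other animals or other immunoprecipitations. A tag count of 0 allows up to 3 tags.

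Gata2 enrichment came as many short, separate sites on every one of the 19 chromosomes. A total of 21818 regions stood at least 4-fold above a local expectation at a false discovery rate of 0.01, from 0.607% of all 400 bp windows that held a Gata2 tag. The expectation was whichever was highest among the mean of the Gata2 library and the scaled IgG density over 1, 5 or 10 kb centred on the window. Together the regions spanned 14.6 Mb, or 0.684% of the 2138 Mb of sequence with a tag of either library. They held 6.57% of the Gata2 tags (6.55 to 6.59) and 0.683% of the IgG tags (0.675 to 0.692), a 9.61-fold difference (9.49 to 9.74). The IgG share of tags was thus close to the regions' share of the covered sequence. No IgG tag at all was found in 8221 regions (37.7%). The IgG library was sparse, with a mean of 0.636 tags per 400 bp and a median of 1 per region. The call also favours regions with few IgG tags. Whether the 37.7% differs from the share elsewhere in the genome was not tested. Within 400 bp around the summits of all regions, IgG tags were 1.21 times as dense as in flanking sequence (1.19 to 1.23). Exchanging the libraries gave 174 regions, with fewer tags and so less power on the IgG side. The number of Gata2 regions depended on the tags used: it was 34519 with repeated tags kept and 12717 with Gata2 thinned to the IgG tag number. The test compares tags of these 2 libraries and not conditions.

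Regions were unevenly shared out among chromosomes. Chromosome 11 was the densest, with 16.6 regions per covered Mb (15.8 to 17.4), followed by chromosome 19 with 14.4 (13.4 to 15.5), chromosome 17 with 12.9 (12.1 to 13.7) and chromosome 7 with 12.5 (11.8 to 13.1). Chromosome 14 was the sparsest, with 7.07 (6.57 to 7.61), next to chromosome 3 with 7.80 (7.34 to 8.28) and chromosome 1 with 7.93 (7.51 to 8.36). The mean of chromosomes 1 to 19 was 10.2 (10.1 to 10.3). The intervals of chromosomes 14 and 3 overlapped, as did those of chromosomes 17 and 7, while those of chromosomes 11 and 19 did not. These intervals treat regions as independent counts. The number of regions per 1 Mb stretch had a variance 11.8 times its mean, so the intervals are too narrow. Whether chromosomes 11 and 19 differ beyond that spread was not tested. Chromosome 11 had 2.35 times (2.15 to 2.56) the density of chromosome 14, and this ratio lay between 2.18 and 2.49 under all alternatives in the processing that were tried, with 2.19 (2.03 to 2.36) when IgG was left out of the expectation.

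**Figure D1:**
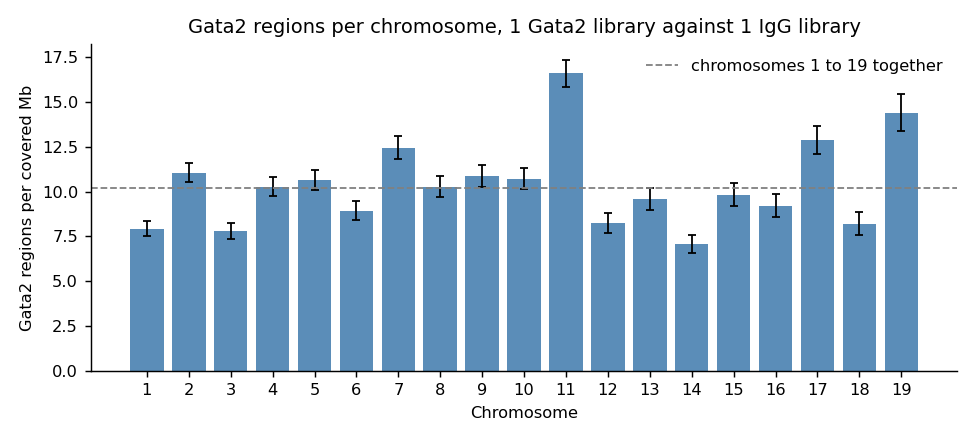
Gata2 regions per covered Mb (y axis) on chromosomes 1 to 19 (x axis); bars are counts divided by the length with a tag, error bars are exact 95% Poisson intervals and the dashed line is the mean of all chromosomes. Chromosome 11 stands at 16.6 and chromosome 14 at 7.07.

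The same chromosomes differed in their Gata2 tags as a whole. Scaled by the kept totals, Gata2 tags were 1.17 times as frequent as IgG tags on chromosome 11 (1.16 to 1.17), 1.11 times on chromosome 19 (1.10 to 1.12) and 0.914 times on chromosome 3 (0.909 to 0.919). Chromosome 14 had 0.926 times (0.921 to 0.932). Across the 19 chromosomes, regions per Mb and this ratio correlated at r = 0.979 (Spearman's rho 0.951), which is a description over chromosomes that share 2 libraries. Both come from the same tags, and the ratio includes tags inside regions, so part of the correlation is built in. Regions per Mb and IgG tags per Mb ran opposite to each other (rho -0.767). The share of Gata2 tags inside regions was 9.81% on chromosome 11 and 4.61% on chromosome 14. The median fold per chromosome was between 8.32 and 8.82 and the median width 600 or 700 bp. Both move in steps, of 1 tag and of 100 bp, so small differences between chromosomes would not show in them. Regions per Mb and median fold correlated at rho 0.443 over the 19 chromosomes.

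Within chromosomes the spread was more uneven still. Of the 2360 stretches of 1 Mb with at least 500 kb of covered sequence, 479 had no region (20.3%, 18.7 to 22.0). The median stretch had 6 regions and the fullest had 75. The densest 10% of stretches held 35.7% of the regions, and the densest 25% held 65.6%.

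Gata2 tags between the regions rose with the number of regions, which were called from tags of the same 2 libraries. In stretches without a region, Gata2 tags stood at 0.708 times the IgG level (0.705 to 0.710). In stretches of 1 or 2 regions, tags outside regions stood at 0.785 times (0.782 to 0.788), in stretches of 6 to 10 at 0.980 times (0.977 to 0.984), and in the 115 stretches with 31 or more at 1.43 times (1.42 to 1.44). Both libraries moved in these stretches: from none to 31 or more regions, Gata2 tags outside regions went from 2.18 to 3.11 per covered kb, and IgG tags went from 1.81 to 1.33. The part of the lower IgG level in these counts was not tested stretch by stretch. IgG is in the expectation of the calls, and sites too weak to be called count as outside regions. Part of the rise is therefore built in.

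Tags were also compared in plain bins without any calling of regions. In bins of 10 kb, those with more Gata2 were only slightly more common than those with less. Of 230580 bins with at least 10 tags of both libraries together, 17537 (7.61%) had at least 2 times more Gata2 than IgG tags, and 14925 (6.47%) had at least 2 times fewer, after scaling and with 1 tag added to each side. The 10th, 50th and 90th percentiles of the ratio were 0.551, 0.936 and 1.82. The 2 tails differed in what they held. Of the bins with more Gata2, 52.5% (51.8 to 53.3) contained a region, against 7.92% of all bins. None of the bins with fewer Gata2 tags contained one, which the calling rule, with IgG in its expectation, builds in. Bins and regions are counted from the same tags, so the 52.5% is also partly built in. Only 56.2% of the regions (55.5 to 56.8) lay in a bin with at least 2-fold more Gata2, and the rest lay in bins below that limit.

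The balance depended on the size of the bin. In bins of 1 kb, 35573 of the 87318 that held at least 10 tags (40.7%) were at least 2-fold higher and 6868 (7.87%) at least 2-fold lower. So few bins of this size hold 10 tags that they are a selection of dense places. In bins of 100 kb, 605 of 23818 (2.54%) were at least 2-fold higher and 64 (0.269%) at least 2-fold lower. In bins of 1 Mb, 13 of 2409 were at least 2-fold higher and 1 was at least 2-fold lower. The highest 1 Mb bin reached 2.49 times the IgG level.

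Regions were narrow. The median width was 600 bp (600 to 700), or 300 bp with windows of 200 bp, measured in steps of 100 bp from windows of 400 bp, which set the smallest possible width. Regions of 400 bp made up 18.3%, those of 500 or 600 bp 31.8% and those of 700 to 900 bp 40.5%. Only 2009 regions (9.21%) were 1000 to 1900 bp wide and 52 (0.238%) were 2000 bp or wider. The 52 widest held 2.13% of all tags in regions.

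Wide regions mostly had several summits. A second summit was counted when it lay at least 300 bp from the first and reached at least 50% of its tags within 50 bp. This was so in 11.6% (11.04 to 12.3) of regions of 400 to 600 bp, 15.99% (15.2 to 16.8) of those of 700 to 900 bp and 70.1% (68.1 to 72.1) of those of 1000 to 1900 bp. Among the 52 regions of 2000 bp or more, 43 had several summits. Wider regions leave more room for a further summit. Wider regions were also stronger, with a median fold of 7.39 at 400 to 600 bp, 11.1 at 700 to 900 bp, 12.8 at 1000 to 1900 bp and 17.5 at 2000 bp or more, and width and fold correlated at rho 0.712 over the 21818 regions. Width and fold are read from the same windows, so this is a description.

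The extent of a site was also read from tags that had no part in choosing it. Regions were called on forward tags alone (9048 regions) and their reverse tags were then measured, and the other way round (9149 regions). Reverse tags were densest 45 bp to the right of the forward summit, and forward tags were densest 45 bp to the left of the reverse summit. After moving each tag by 53 bp towards the fragment centre, the pooled peak was 150 bp wide at 50% of its height over the flanks for reverse tags and 140 bp for forward tags. The pooled peak was thus narrower than the median region called around such sites.

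**Figure D2:**
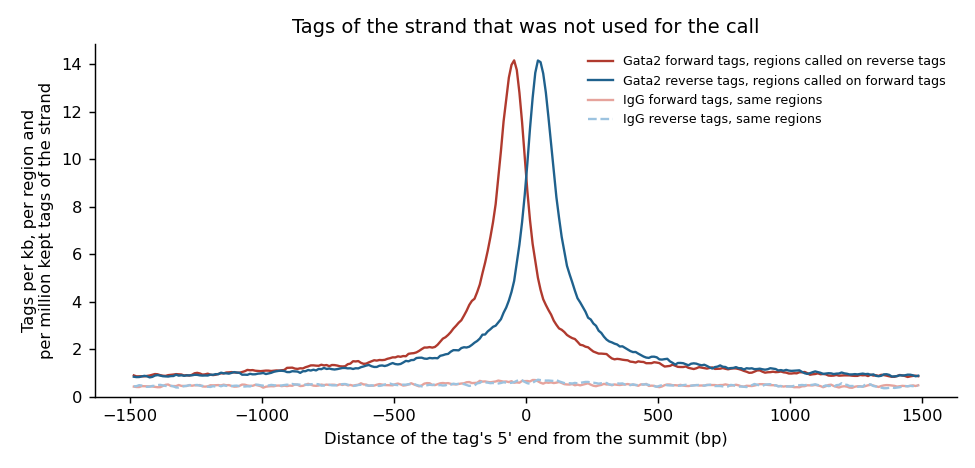
Tags per kb, per region and per 1000000 kept tags of the strand (y axis) against the distance of the tag's 5′ end from the summit in bp (x axis), for the strand that was not used to call the region. Gata2 reaches 14.2 on both strands, 45 bp to either side of the summit, and IgG does not exceed 0.719.

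This split also gave a measure of strength on tags that had no part in choosing the windows. It covers only the 9048 and 9149 regions strong enough to be called on 1 strand, against 21818 called on both strands together. Within 400 bp around the summit, the unused strand was 9.77 times as dense as the flanks 3 to 5 kb away for reverse tags (9.67 to 9.87) and 9.76 times for forward tags (9.66 to 9.86). The strand used for the call stood at 12.2 and 12.1 times. IgG tags of the unused strand stood at 1.46 times their own flanks in both cases (1.42 to 1.52 for reverse and 1.41 to 1.51 for forward tags). On the unused strand, 87.8% of the regions called on forward tags and 87.9% of those called on reverse tags reached 4 times the genome mean of that strand. The unused strand had no tag in 161 and 148 regions.

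At this depth most regions were of modest fold, with a short tail of strong ones. The median fold in the best window was 8.32 and the median number of tags there 11, with 8 tags the fewest of any region. At a count this low fold moves in steps: 9 tags over the genome mean give exactly the median. Because no region has fewer than 8 tags, the lowest folds occur only where local IgG raises the expectation. The median also depended on depth: it was 11.3 with Gata2 thinned to the IgG tag number and 12.1 on 50% of the Gata2 tags. Regions of 4 to 5 fold numbered 814, those of 5 to 10 fold 13065 (59.9%), those of 10 to 20 fold 6733 (30.9%), those of 20 to 50 fold 1118 (5.12%) and those of 50 fold or more 88 (0.403%). The top 10% of regions by tags held 26.7% of all tags in regions. The IgG density at summits was highest in the weakest regions. It was 3.20 times its flanks in the regions of 4 to 5 fold (3.02 to 3.38), 1.22 times at 5 to 10 fold (1.20 to 1.25), 0.887 times at 20 to 50 fold (0.810 to 0.970) and 1.02 times at 50 fold or more (0.742 to 1.38). High IgG lowers the fold by construction.

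**Figure D3:**
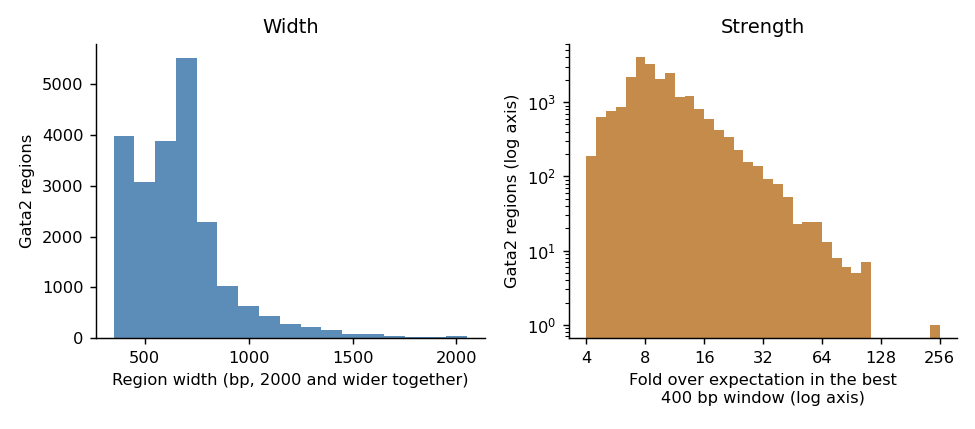
Number of Gata2 regions by width in bp (left, regions of 2000 bp and more together) and by fold over expectation in the best 400 bp window (right, both axes logarithmic). Most regions are 400 to 900 bp wide, and 88 of 21818 reach 50 fold or more.

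The strongest regions on most chromosomes had their strands in the order of a bound site, forward tags on the left. On chromosome 2, chr2:162920201-162921200 had 122 Gata2 tags and 0 IgG tags in its best window, a fold of 113, and its median reverse tag lay 115 bp to the right of its median forward tag. On chromosome 4, chr4:116975801-116976800 had 150 Gata2 and 2 IgG tags, a fold of 110 and a displacement of 98 bp. The highest region of chromosome 1 did not have this order and is described below. After it on that chromosome came chr1:182686901-182688300, with 174 Gata2 tags and 1 IgG tag, a fold of 107 and a displacement of 104 bp. These displacements are close to the 106 bp found for the library as a whole.

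Further regions near 100 fold had the same form. The region chr2:118942001-118943000 reached 103 fold with 112 Gata2 tags and a displacement of 141 bp. Both chr14:53659401-53660700 (112 Gata2 tags, displacement 138.5 bp) and chr8:75196901-75198100 (126 Gata2 tags, displacement 127.5 bp) also reached 103 fold. The region chr10:79836401-79837600 reached 97.4 fold with 106 tags and a displacement of 95.5 bp. All 4 had 0 or 1 IgG tag in the best window.

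On the other chromosomes the strongest region was between 57.8 and 95.2 fold, apart from chromosome 12. In descending order these were chr11:78352001-78353200 at 95.2 fold, chr7:28090401-28093200 at 91.5, chr3:96665101-96666200 at 89.5, chr17:84024301-84025400 at 88.7 and chr18:61884001-61884900 at 83.2. Lower down came chr16:92689501-92691100 at 74.8 fold, chr9:75195601-75196700 at 74.2, chr5:139986201-139987200 at 73.9, chr19:37499601-37502100 at 72.1, chr6:87506501-87508400 at 65.3, chr15:73472601-73473500 at 65.2 and chr13:85599501-85600900 at 57.8. All but the last had reverse tags 88 to 139 bp to the right of forward tags. Each of the 12 had 0 or 1 IgG tag in its best window, which their choice by fold favours.

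Several of the highest regions did not have this order of strands. The highest of all, chr1:24565501-24570800, had 258 tags in its best window, none from IgG, and a fold of 238. Its 2055 tags covered 5300 bp with a median of 41 tags per 100 bp and at most 75, and reverse tags lay only 12 bp to the right of forward tags. Forward tags numbered 1312 and reverse tags 743. Without this region the share of Gata2 tags in regions was 6.54%. The Gata2 file listed no mitochondrial tag and the IgG file 935, and whether tags from elsewhere were placed in this region was not tested. The region chr2:22439901-22442500, at 102 fold, had 641 tags over 2600 bp with a displacement of 89.5 bp but only 57.7% of the tags near its summit on the side their strand calls for, and 64.8% of its tags had no mismatch, against 95.6% of the library. The region chr12:97457001-97458000, at 101 fold with 131 tags, had its reverse tags 21 bp to the left of its forward tags, and each of its positions had been sequenced 2.99 times on average, against a median of 1.16 over all regions. The region chr13:85599501-85600900 had a displacement of 11 bp and 1.82 tags per position, and 56.2% of its tags had no mismatch.

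Displacement was compared with fold in the 2575 regions that had at least 10 tags on each strand within 300 bp of the summit. It lay between 53 and 159 bp in 80.3% of them (78.7 to 81.8). The share was 60.7% (54.9 to 66.2) under 10 fold, 75.2% (72.7 to 77.7) at 10 to 20 fold, 91.2% (89.3 to 92.9) at 20 to 50 fold and 89.8% (81.5 to 95.2) at 50 fold or more. Of the 88 regions at 50 fold or more, 9 were outside: 7 below 53 bp and 2 above 159 bp. Those 9 had a median of 1.87 tags per position and the other 79 a median of 1.36. Beyond the 3 already given, those below 53 bp were chr4:79473601-79476700 (85.2 fold, 47.5 bp), chr10:95506901-95507900 (76.5 fold, -2 bp), chr2:69156001-69156900 (63.8 fold, 10.5 bp) and chr12:9055201-9056800 (60.1 fold, 34 bp). Those above 159 bp were chr17:56745101-56746200 (84.1 fold, 174 bp) and chr17:29586401-29587600 (57.7 fold, 163.5 bp). Every class was limited to regions with at least 10 tags on each strand. The class under 10 fold held only 300 regions, from 814 at 4 to 5 fold and 13065 at 5 to 10 fold. At 20 to 50 fold it held 1012 of 1118. The share under 10 fold therefore describes a small selection of those regions. Whether tag number has a part in the differences between classes was not tested. The summit was placed with tags moved towards each other, which favours displacements near 106 bp.

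**Figure D4:**
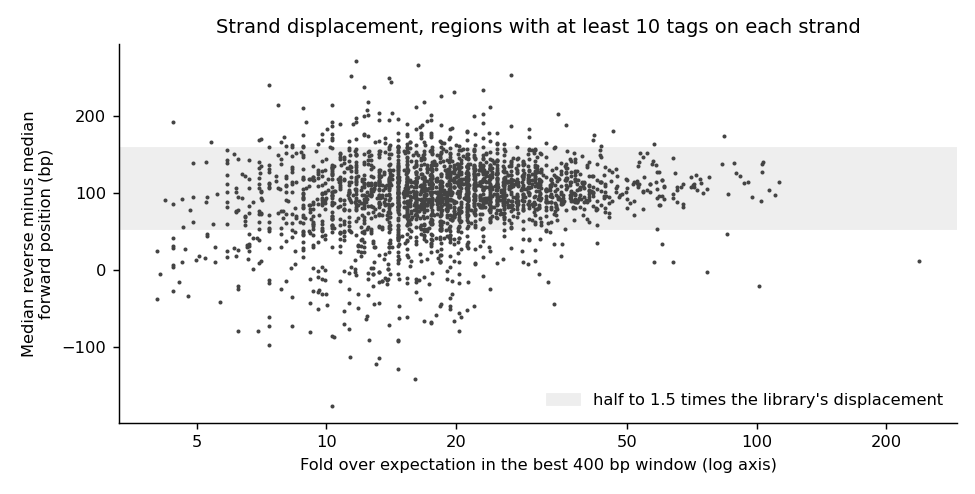
Median reverse minus median forward tag position in bp (y axis) against fold in the best 400 bp window (x axis, logarithmic), 1 point for each of the 2575 regions with at least 10 tags on each strand; the grey band runs from 53 to 159 bp. Of the 88 points at 50 fold or more, 79 lie in the band, and the point at 238 fold lies at 12 bp.

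By tag number alone, regions dense in IgG also came to the top. The most tags in a best window, 369, belonged to chr17:39456401-39457000, where IgG had 73 tags and the fold was 4.63. The third, chr11:108827801-108828200, had 207 Gata2 and 68 IgG tags and a fold of 4.11. Their displacements were 10 and -5 bp. The second was the region of chromosome 1 at 238 fold. The regions nearest the 4-fold limit were of the same kind: chr17:35839301-35839700 had 99 Gata2 and 35 IgG tags and chr1:90108501-90108900 had 44 and 8, both at 4.04 fold. A typical region was far smaller. At the median of 8.32 fold, chr10:10011301-10011900 and chr10:105147701-105148100 had 9 tags each in the best window and chr10:115801601-115802100 also had 9, with 0 or 1 from IgG. Their displacements, from so few tags, were -108, -111 and 161.5 bp, all outside the band of 53 to 159 bp. Many regions tie at the median fold, so these stand for its tag number and not for its strand order. Over the 20356 regions with at least 3 tags on each strand, the median displacement was 93.5 bp, and 88.6% of displacements were positive. At 5 to 10 fold it was 88.5 bp, with 86.0% positive. The placing of summits favours such values.

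Among the 5 widest regions, 1 was also the highest by fold, that of chromosome 1 at 238 fold, and the other 4 were between 17.0 and 30.96 fold. The widest, chr8:73627201-73633900, spanned 6700 bp with 362 Gata2 and 14 IgG tags and reached 24.98 fold. The next, chr19:5839201-5845300, spanned 6100 bp with 488 and 25 tags at 17.0 fold, and chr7:18459001-18464600 spanned 5600 bp with 227 and 8 tags at 28.6 fold. The fifth, chr4:94540201-94544900, spanned 4700 bp with 271 and 16 tags at 30.96 fold. These 4 held 40.5 to 80.0 tags per kb, against 388 per kb in the region of 5300 bp on chromosome 1, the fourth by width. The widest had a displacement of 9 bp, and only 50% of the tags near its summit lay on the side their strand calls for. Displacements were 97, 95.5 and 107.5 bp in the wide regions of chromosomes 19, 7 and 4.

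Neighbouring sites were often close together, with a few very long stretches between them. The median distance between neighbouring summits was 26486 bp (25839 to 27135) and the mean was 109559 bp. Of 21799 distances, 3.18% were under 1 kb, 5.59% were 1 to 2 kb, 8.96% were 2 to 5 kb and 10.7% were 5 to 10 kb. Most (52.8%) were 10 to 100 kb. The nearest other summit lay within 10 kb for 46.8% of regions (46.1 to 47.5), within 50 kb for 84.5% and within 100 kb for 93.3%. The share within 10 kb depended on the processing, from 31.3% with only regions displaced by 53 to 159 bp to 53.7% with repeated tags kept. It did not follow the number of regions alone. With regions within 1 kb joined it was 38.0% at 20131 regions, and with 200 bp windows it was 49.1% at 21202 regions. The smallest distance was 342 bp, since touching windows were joined. The median distance followed the number of regions and was 19862 bp with repeated tags kept and 45929 bp with Gata2 thinned to the IgG tag number.

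**Figure D5:**
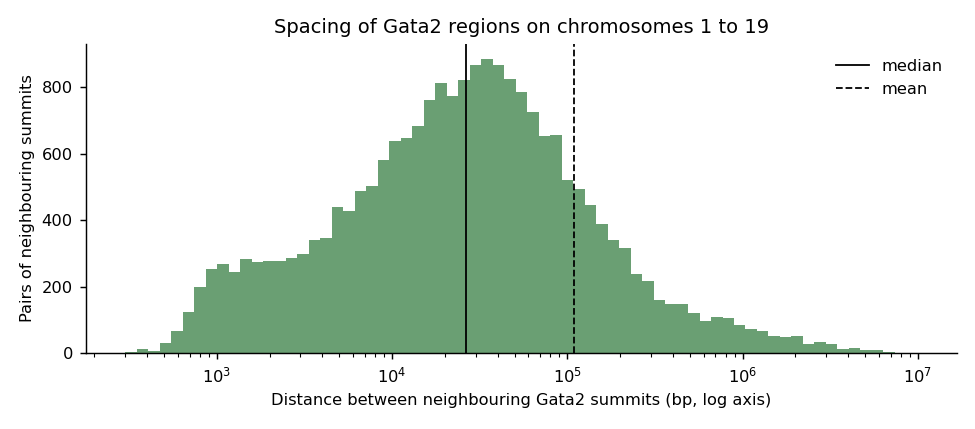
Number of pairs of neighbouring Gata2 summits (y axis) by their distance in bp (x axis, logarithmic); the solid line is the median of 26486 bp and the dashed line the mean of 109559 bp. Most distances (52.8%) lie between 10 and 100 kb, and a tail of 444 reaches past 1 Mb.

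Runs of summits at most 10 kb apart were counted as clusters. Single regions made up 53.2% of the list, 1270 clusters had 3 or more regions and 198 had 5 or more, and the largest had 17. Regions in clusters of 5 or more had a median fold of 9.18 (8.82 to 9.24), against 8.32 for single regions, and 31.1% of them were in the strongest 25% of all regions, against 23.9% of single ones. Over all regions, fold and the distance to the nearest summit were nearly unrelated (rho -0.0243). A neighbour within 10 kb was found for 47.8% of regions of 4 to 5 fold, 45.5% at 5 to 10 fold, 48.3% at 10 to 20 fold, 51.6% at 20 to 50 fold and 55.7% at 50 fold or more.

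Distances between strong regions are long in part because such regions are few, and no equal number of other regions was set beside them. The 1206 regions of 20 fold or more had a median distance of 692820 bp (615609 to 780298) to the next one, and 36 of these distances were under 10 kb. They numbered 32 on chromosome 14 and 93 on chromosome 11. The 88 regions of 50 fold or more had a median distance of 10457831 bp (7210937 to 14615846) and occurred on every chromosome, with 2 on chromosome 19 and 9 on chromosome 7. Of the distances between neighbours of 50 fold or more, 1 was under 10 kb, while 55.7% of these regions had some other region within 10 kb.

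The fullest stretches of 100 kb held 17 to 21 regions. On chromosome 11, from 68862114 to 68950121, 21 regions had a median distance of 2537 bp, folds of 6.53 to 12.2 and 289 Gata2 against 15 IgG tags. On chromosome 13, from 23511499 to 23605642, 19 regions had folds of 4.70 to 15.4. The other 3 had 17 regions each and lay on chromosome 1 from 88318710 to 88415070, on chromosome 8 from 125124429 to 125215820 and on chromosome 17 from 34773194 to 34871173. Median folds of the 5 stretches were 7.78 to 9.55, apart from 13.9 for the stretch on chromosome 8. That stretch held 507 Gata2 and 17 IgG tags and reached 43.4 fold.

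Distances of 1 Mb or more numbered 444, or 2.04% of all, and made up 937 Mb, or 39.2% of the summed distance. Their share was 51.3% on chromosome 14 and 49.3% on chromosome 3, and 26.1% on chromosome 11 and 21.03% on chromosome 19. The longest ran for 8.87 Mb on chromosome 14, from 86248061 to 95113415. It held 18414 Gata2 and 15861 IgG tags, and 87.8% of its 1 kb bins had a tag, so tags could be placed there. The next were 8.42 Mb on chromosome 3 from 41839005 to 50256260, 7.03 Mb on chromosome 2 from 94239089 to 101273721, 6.87 Mb on chromosome 1 from 99960431 to 106825576 and 6.57 Mb on chromosome 6 from 73178207 to 79747749. In these 5 the scaled ratio of Gata2 to IgG tags was between 0.664 and 0.682, and over all 444 it was 0.743 (0.741 to 0.745). Gata2 tags, scaled, were thus fewer than IgG tags along these stretches. The stretches were chosen for holding no region called from the same tags, with IgG in the expectation. The scaling also counts the Gata2 tags inside regions, so part of the low ratio is built in.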

How the data were processed

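The authors' deposited files hold 1 aligned tag per line, with other columns for its match, and no normalized values. Chromatin was crosslinked, sonicated and sequenced on an Illumina Genome Analyzer, per the labels' protocols. The submitters' processing notes name build mm8, and neither aligner nor filters are given. The match columns of the Gata2 and IgG files differ in kind, and 95.6% and 69.3% of kept tags had no mismatch, so mapping rules may have differed.

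Repeats of a position on the same strand were dropped, and tags were moved by 53 bp and summed in 400 bp windows every 100 bp. A one-sided Poisson test was applied to windows of at least 3 tags. P-values were adjusted by Benjamini-Hochberg over all windows that held a tag. Those that passed 0.01 and stood 4-fold or more above expectation were joined where they touched. A region's fold is that of its best window, and its summit has the most moved tags within 50 bp. Intervals are exact (Clopper-Pearson, Poisson or conditional binomial) or, for medians, from order statistics. Calling was tested on simulated data with planted sites on an evenly spread background. That background lacks the dense IgG places and repeated tags of these libraries, so it does not measure false calls in them. Python 3.11.15, NumPy 2.4.6 and SciPy 1.17.1 were used.

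Named regions were the 10 with the highest fold, the 3 with most tags in the best window, the 5 widest, the highest of each chromosome, the 3 nearest the median fold and the 3 just inside the threshold, with the 5 fullest stretches of 100 kb and the 5 longest distances. Members, lists and rules were chosen with earlier results of these data known. The strand split, the displacement classes and the 6 further regions outside them, and the settings on 50% or 75% of tags and on displacement, were chosen after seeing the data.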

Additional observations from a re-analysis of the deposited data

Results flagged for a closer look

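The comparison leaves out chromosome X, where some regions were also enriched for Gata2, although Gata2 tags on X as a whole were fewer than IgG tags. Called together with the other chromosomes, it had 275 Gata2 regions, or 2.19 per covered Mb (1.94 to 2.47), against 14 regions when the libraries were exchanged. The region density was below that of chromosome 14 (7.07), the sparsest of chromosomes 1 to 19. Median width (600 bp) and median fold (8.20) were close to those of the other chromosomes. Scaled by the kept totals of chromosomes 1 to 19, Gata2 tags on X were 0.754 times as frequent as IgG tags (0.750 to 0.758).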

How the results depend on the processing

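The number of regions depended on depth, repeats, fold and strand order, and less on the use of IgG and the false discovery rate. With the genome mean only it was 28188, and at a false discovery rate of 0.001 it was 16340. It was 34519 with repeated tags kept, 12717 with Gata2 thinned to the IgG tag number, 13359 at 8-fold, 11862 on 50% of the Gata2 tags and 12312 for regions with a strand displacement of 53 to 159 bp (at least 3 tags per strand); the last 2 settings, and that of 75%, were chosen after seeing the data. It was still rising between 75% (17454) and 100% of the Gata2 tags, with IgG at its full tag number, so the number of calls had not levelled off. Whether the added calls are bound sites was not tested. The percent of Gata2 tags in regions was 8.97 with repeats, 4.78 thinned, 5.42 at a false discovery rate of 0.001, 4.47 at 8-fold, 4.82 with 200 bp windows, 8.19 with the genome mean only, 6.33 without mismatched tags, 6.66 with regions within 1 kb joined, 5.75 and 4.58 on 75% and 50% of tags, and 4.07 with the displacement limit. In the same order of settings, the median fold was 7.14, 11.3 (thinned), 9.58, 10.4, 12.9, 9.24, 8.52, 8.68, 9.64, 12.1 and 9.24. The median distance in bp was 19862, 45929, 34665 and 41469 for the first 4 settings, 21273 with the genome mean only, 27575 without mismatched tags, 30833 with joining, 33146 and 49819 on 75% and 50% of tags, and 47574 with the displacement limit. The percent of regions with a neighbour within 10 kb was 53.7 with repeats, 34.5 thinned and 36.3 at 8-fold. It was 41.0 and 32.7 on 75% and 50% of tags and 31.3 with the displacement limit. With joining it was 38.0, with 200 bp windows 49.1 and at a false discovery rate of 0.001 39.9. With the genome mean only it was 52.5 and without mismatched tags 45.6. The median width changed beyond its interval only with 200 bp windows (300 bp). The percent of 10 kb bins with at least 2-fold more Gata2 was 9.69 with repeats, 8.72 thinned, 7.43 with at least 3 IgG tags, 9.03 without mismatched tags, 7.76 and 8.25 on 75% and 50% of tags; it was 10.9 in 5 kb bins and 0.592 at 4-fold. Of the 33 named regions, 33 were called with repeats kept, at a false discovery rate of 0.001, with the genome mean only, with at least 3 IgG tags and with joining, 27 thinned, 29 at 8-fold, 31 with 200 bp windows, 32 without mismatched tags, 29 and 28 on 75% and 50% of tags, and 22 with the displacement limit. The 10 kb bins do not use the false discovery rate, the genome mean, joining or the displacement, so these were not run for them. No paired analysis was possible because each antibody has 1 library.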

Other observations

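The 1 Mb stretches with most regions, listed after their values were seen, were a pair of neighbours on chromosome 10, with 75 regions from 80000001 to 81000000 and 67 from 79000001 to 80000000. Chromosome 8 followed with 63 regions from 125000001 to 126000000, chromosome 19 with 61 from 5000001 to 6000000 and chromosome 11 with 59 from 69000001 to 70000000. Regions held 29.8%, 28.3%, 30.5%, 35.2% and 26.7% of the Gata2 tags in these stretches, in that order, against 6.57% on chromosomes 1 to 19. The scaled ratio of Gata2 to IgG tags was 2.49, 2.35, 2.49, 2.38 and 2.0005 in the same order.

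Repeated tags were somewhat more frequent inside Gata2 regions (16.5%) than outside (13.96%), and for IgG the order was the other way (26.9% inside and 30.1% outside). The IgG tags of chromosome 16 stood apart, with 53.6% repeated, against 27.6% to 32.6% on the other chromosomes. Gata2 tags of chromosome 16 were repeated in 13.7%. In the 174 regions called with the libraries exchanged, the median displacement between strands was 24 bp, near the tag length of 25 bp.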
